A study of Caenorhabditis elegans with 6 samples.

Results

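The lpr genes of Caenorhabditis elegans encode lipocalin-related proteins, and 7 of them, lpr-1 to lpr-7, were measured among 17118 genes on an Affymetrix whole-genome array. The members were chosen by gene symbol, as all probe sets that the array annotation gives to a single gene of the form lpr-number, which found 9 of the 22548 probe sets tested. No measured value entered that choice, but the family was put forward with earlier results of the same comparison known, so the values below describe these arrays and the calls among them are not independent support. The genes lpr-3 and lpr-7 had 2 probe sets each, and the other 5 genes had 1.

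Expression was compared between whole larvae in L3 lethargus, picked at 37 hours after feeding because they neither moved nor ate, and active L3 larvae, picked at 32 hours. Both groups were wild-type hermaphrodite-derived N2 (Bristol) animals that hatched without food, arrested as L1 larvae, were fed at the same time and grew at 20 °C on the bacterial strain DA837. Each of the 3 arrays per stage came from a pool of 200 animals gathered as 10 tubes of 20. Age, phase of the molt and behaviour differ together between the stages and cannot be told apart.

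Lipocalins are small, mostly secreted proteins whose barrel-shaped fold can hold a greasy molecule, and in animals they carry lipids, pigments or sterols through extracellular fluids and matrices. Epithelia of C. elegans facing the outside, such as the skin and the narrow tubes of the excretory system, build a temporary apical coat, the precuticle, before each new cuticle is laid down at the molt. LPR-3 is a component of that coat, and LPR-1 is known for keeping the excretory duct and pore tubes intact. The other family members are less well studied.

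All 9 lpr probe sets had a lower mean in lethargus than in L3, and 0 of the 9 passed the test. The log2 changes, lethargus minus L3, ran from -1.22 for the brighter probe set of lpr-7 to -0.05 for lpr-2. With 1 probe set per gene, the one with the highest mean, the median change of the 7 genes was -0.86, against 0.016 over all probe sets tested. A negative change was seen for 46.4% of all probe sets. The test was limma's moderated test fitted across the whole array, with a Benjamini-Hochberg adjusted p of 0.05 or less as the threshold, and it called 0.213% of all probe sets lower and 0.754% higher in lethargus. At an unadjusted p under 0.05, limma put 6 of the 9 lpr probe sets lower, for the 4 genes lpr-3, lpr-4, lpr-5 and lpr-7, against 5.11% of all probe sets. An ordinary linear model without shared variance gave 2 lower at that level, both for lpr-7, against 3.86% of all probe sets, and 0 after adjustment.

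**Figure D1:**
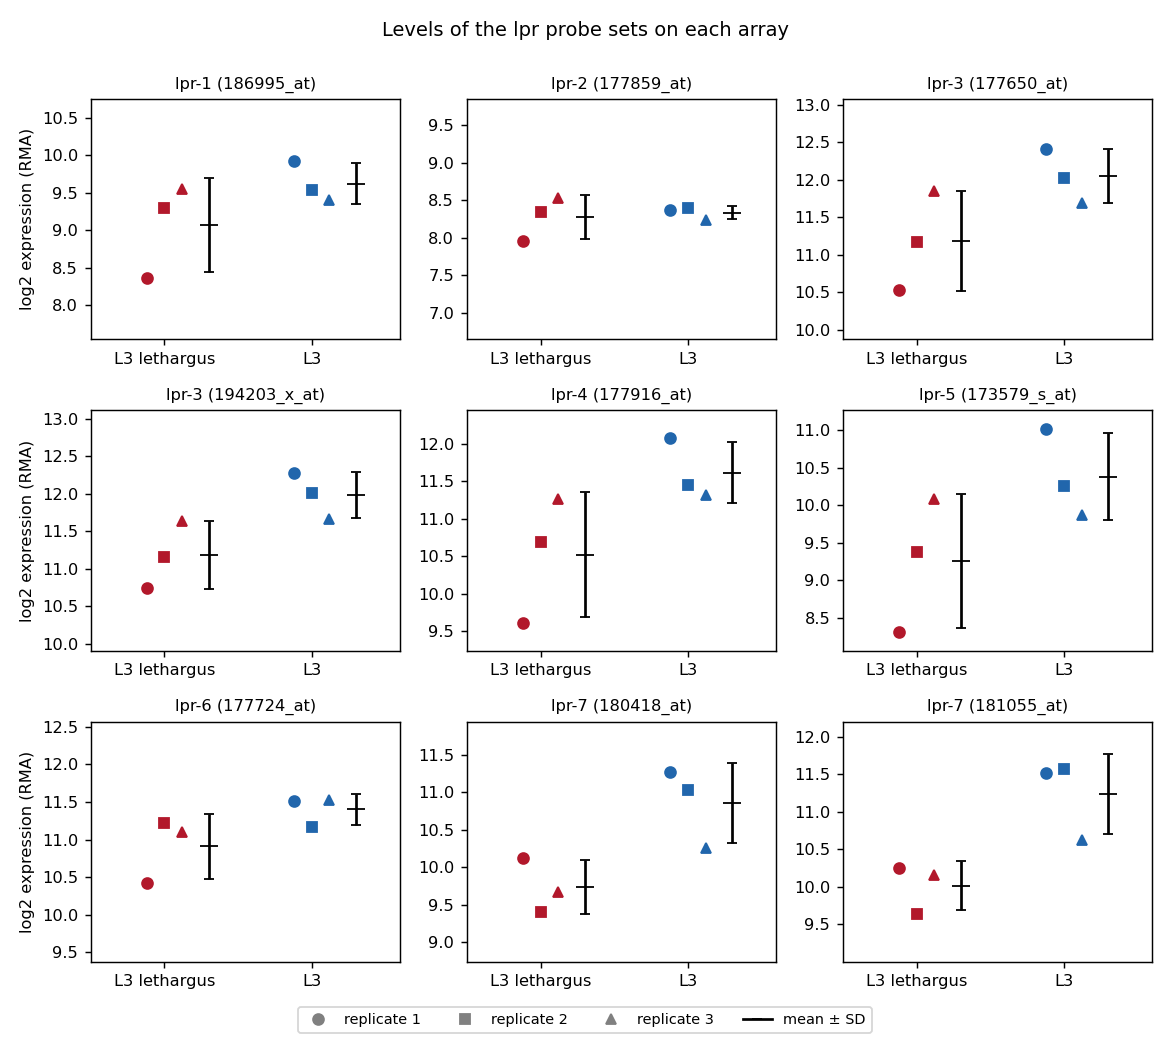
Log2 expression of each lpr probe set on every array, with L3 lethargus on the left in red and L3 on the right in blue; marker shapes give the replicate number, black bars the mean ± SD (n = 3 each), and every panel spans the same number of log2 units. The groups are separate for lpr-7 and lpr-4 and for one probe set of lpr-3, and they overlap for lpr-1, lpr-2, lpr-5, lpr-6 and the other probe set of lpr-3.

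Array medians spanned 7.09 to 7.19 on the log2 scale, and 0 pairs of arrays held identical values. The submitters reported 19.7 ± 3.5 ng of total RNA per pool in lethargus and 29.1 ± 15.9 ng in L3, and all RNA was amplified before labelling. Lethargus replicates 1 and 3 and L3 replicate 3 weigh on the lpr values. Of the L3 arrays, replicate 3 lay far from the others along the first principal component, at 0.82 against -47.7 and -40.9, with the lethargus arrays at 19.5 to 39.1. Lethargus replicate 1 was the lowest of the 6 arrays for 7 of the 9 lpr probe sets, compared with 21.96% of all probe sets. Every lpr value, the lowest being 7.96, lay above 5.73, the highest value of the Bacillus subtilis control probe sets that guide where background lies. Because whole animals were measured, fewer cells of a type and less RNA per cell cannot be told apart.

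lpr-3, the gene for the precuticle lipocalin, was measured by 2 probe sets. The one with the higher mean read 10.53, 11.18 and 11.85 on lethargus replicates 1 to 3, against 12.41, 12.02 and 11.69 on L3 replicates 1 to 3. All lethargus values but that of replicate 3 lay below every L3 value, so the groups overlapped. The means were 11.19 ± 0.66 in lethargus and 12.04 ± 0.36 in L3 (SD, n = 3 each), a log2 change of -0.86 (SE 0.34, 95% interval -1.65 to -0.06). Its adjusted p from limma was 0.425. The other probe set, whose identifier marks probes that may match related transcripts, read 10.74, 11.16 and 11.64 in lethargus and 12.28, 12.01 and 11.66 in L3. Here the groups were separate, by only 0.023 log2 units, with a change of -0.80 (SE 0.26) and an adjusted p from limma of 0.288. With both probe sets averaged, lpr-3 had a change of -0.83 and an adjusted p from limma of 0.337.

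lpr-1, the gene needed for the excretory duct and pore, had a lower mean in lethargus that rested largely on one array. Its probe set read 8.37, 9.29 and 9.55 on lethargus replicates 1 to 3 and 9.92, 9.53 and 9.40 on L3 replicates 1 to 3. Lethargus replicate 1 lay below all other arrays, while replicates 2 and 3 lay close to or within the L3 range. The change was -0.55 (SE 0.31, 95% interval -1.27 to 0.18), with an adjusted p from limma of 0.670. Without lethargus replicate 1 it was -0.20.

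The genes lpr-3, lpr-6, lpr-5 and lpr-4 follow one another in that order on chromosome X in the RefSeq annotation (assembly WBcel235), with no other protein-coding gene between them. lpr-7 also lies on chromosome X, away from this run, whereas lpr-1 lies on chromosome I and lpr-2 on chromosome IV. No coordinates are given because the array table names no genome build.

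lpr-5 and lpr-4 spread most over the 6 arrays, by 2.71 and 2.46 log2 units. The lpr-5 probe set read 8.31, 9.39 and 10.08 on lethargus replicates 1 to 3, against 11.02, 10.26 and 9.87 on L3 replicates 1 to 3. Lethargus replicate 3 lay above L3 replicate 3, so the groups overlapped. The means were 9.26 ± 0.89 in lethargus and 10.38 ± 0.58 in L3 (SD, n = 3 each), a log2 change of -1.12 (SE 0.47, 95% interval -2.22 to -0.03) and an adjusted p from limma of 0.452. Its identifier marks probes that can match several transcripts, so its signal is not shown to be lpr-5 alone.

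lpr-4 read 9.62, 10.69 and 11.26 on lethargus replicates 1 to 3, against 12.08, 11.46 and 11.32 on L3 replicates 1 to 3. The groups were separate, by 0.057 log2 units between lethargus replicate 3 and L3 replicate 3. The means were 10.52 ± 0.84 in lethargus and 11.62 ± 0.40 in L3 (SD, n = 3 each). The change was -1.09 (SE 0.41, 95% interval -2.05 to -0.14), which is 2.14-fold lower in lethargus, with an adjusted p from limma of 0.384.

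lpr-6, the remaining gene of the run, differed least between the stages within it. It read 10.42, 11.22 and 11.10 on lethargus replicates 1 to 3 and 11.51, 11.17 and 11.53 on L3 replicates 1 to 3. Lethargus replicates 1 and 3 lay below the L3 arrays, replicate 3 narrowly, and lethargus replicate 2 lay above L3 replicate 2. The change was -0.49 (SE 0.23, 95% interval -1.03 to 0.05), with an adjusted p from limma of 0.556. Leaving out lethargus replicate 1 brought the changes to -0.53 and -0.58 for the probe sets of lpr-3, -0.64 for lpr-4, -0.65 for lpr-5 and -0.24 for lpr-6. That fit called 0 of these lower, as it did of all probe sets (0%). Leaving out lethargus replicate 3 instead moved the changes further from zero. They were then -1.19 and -1.03 for the probe sets of lpr-3, -1.46 for lpr-4, -1.53 for lpr-5 and -0.58 for lpr-6. This second fit also called 0 probe sets lower over the whole array.

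**Figure D2:**
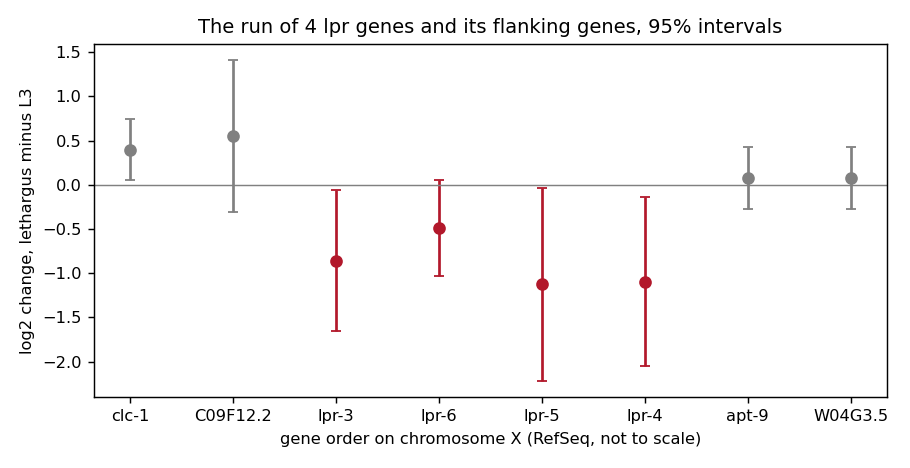
Log2 change, lethargus minus L3, of the 4 adjacent lpr genes (red) and of 2 protein-coding genes on each side (grey), in their order on chromosome X; points are limma estimates from 6 arrays for the brightest probe set of each gene, and bars their 95% intervals. The 4 lpr genes lie between -1.12 and -0.49, clc-1 at 0.40 and both genes on the other side at 0.08; C09F12.2 reads within the range of the background controls.

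Protein-coding genes next to the run were read beside it, a comparison added after the values had been seen. On one side clc-1, which encodes a claudin-like membrane protein, had a change of 0.40 (SE 0.15), while C09F12.2 read below the highest background control on all 6 arrays and shows no direction. On the other side apt-9, a gene named for its place in the adaptin family, had 0.08 (SE 0.15), as did W04G3.5 (SE 0.15). Counting 2 protein-coding neighbours on each side of the run and of lpr-1, lpr-2 and lpr-7, 14 of 16 genes were measured and 5 of these averaged below the highest background control, where a lower level could not be seen. The other 9 had changes from -0.22 to 0.41, limma called 0 of them, and 1, clc-1, had an unadjusted p under 0.05. The difference between the run and its neighbours was not tested.

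lpr-7 had the smallest p of the family. The probe set with the higher mean read 10.25, 9.64 and 10.15 on lethargus replicates 1 to 3, against 11.52, 11.56 and 10.62 on L3 replicates 1 to 3. Every lethargus array lay below every L3 array, and L3 replicate 3 was the nearest to them. The means were 10.01 ± 0.33 in lethargus and 11.24 ± 0.53 in L3 (SD, n = 3 each), a log2 change of -1.22 (SE 0.29, 95% interval -1.89 to -0.55), or 2.33-fold lower in lethargus. Its adjusted p from limma was 0.131. The other probe set read 10.12, 9.41 and 9.67 in lethargus and 11.28, 11.03 and 10.26 in L3, again with separate groups. Its change was -1.12 (SE 0.29) with an adjusted p from limma of 0.174, and with both averaged the gene had -1.17 and 0.135.

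The call of lpr-7 turned on L3 replicate 3, the array that stood apart. In that array the 2 probe sets of lpr-7 lay 0.89 and 0.92 log2 units below the mean of the other L3 arrays. Without it, lpr-7 was called lower on both probe sets, with changes of -1.42 and -1.53 and adjusted p-values from limma of 0.0127 and 0.00661, in a fit that called 2.5% of all probe sets lower. All arrays were instead kept and weighted by how closely each followed the fit. The lowest weights were 0.684 for lethargus replicate 3 and 0.706 for L3 replicate 3. With these weights, the probe set with the higher mean was called with -1.43 (limma adjusted p 0.0444) and the other was not (0.0614). That fit called 1.02% of all probe sets lower. No other lpr gene was called in either fit. Leaving out any one of the other 5 arrays gave adjusted p-values of 0.232 to 0.562 for the probe sets of lpr-7, in fits that called 0 or 1 probe sets lower over the whole array. L3 replicate 3 also read highest of all arrays for 6 of 7 sperm markers. That was the most of the 12 gene lists, which differ in size, and the other lists had 0 to 3 such genes. The share over all probe sets was not computed. Of the 7 sperm markers, 6 averaged below the highest background control. The identifiers for msp-142, gsp-3 and gsp-4 mark probes that may match related transcripts, so these readings may not be separate. On L3 replicate 3 the list's median lay 1.33 log2 units above the mean of the other L3 arrays, against 0.23 to 0.94 above it in lethargus. The part of that difference in the lpr-7 values was not tested.

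**Figure D3:**
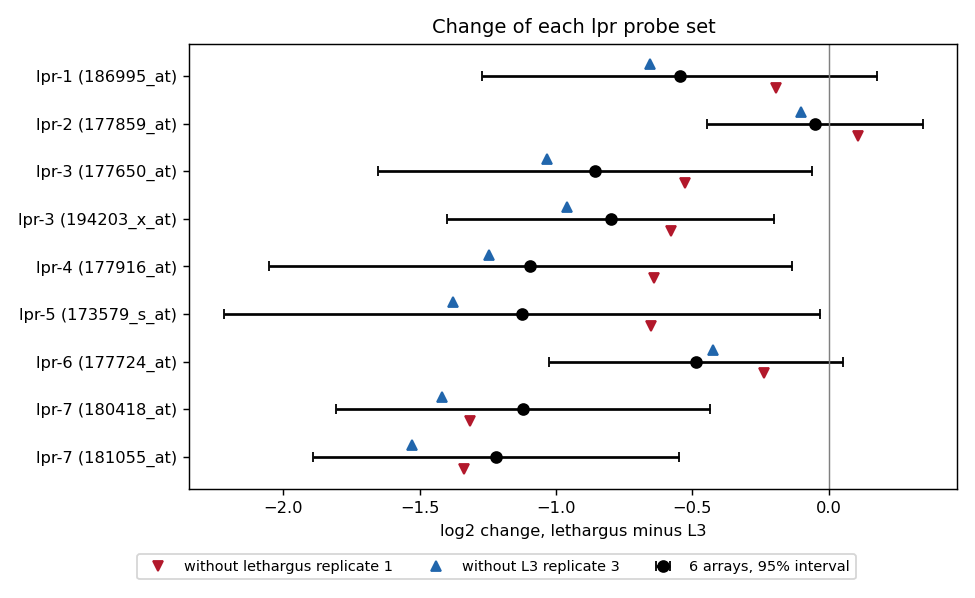
Log2 change, lethargus minus L3, of each lpr probe set, with zero marked by a grey line: black points and bars are limma estimates and 95% intervals from 6 arrays, red triangles the change without lethargus replicate 1 and blue triangles that without L3 replicate 3. Without lethargus replicate 1 every probe set but those of lpr-7 moves towards or past zero, and lpr-2 reaches 0.11.

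lpr-2 had nearly the same mean in both stages. It read 7.96, 8.35 and 8.53 on lethargus replicates 1 to 3 and 8.37, 8.40 and 8.23 on L3 replicates 1 to 3. The L3 values fell inside the range of the lethargus values. The change was -0.05 (SE 0.17, adjusted p 0.981 from limma), and its 95% interval of -0.45 to 0.34 runs down to a level 1.36-fold lower in lethargus. Without lethargus replicate 1 the change was 0.11.

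In total 4 of the 9 lpr probe sets, for lpr-3, lpr-4 and lpr-7, had every lethargus array below every L3 array, against 6.57% of all probe sets. These 4 include both probe sets of lpr-7, which measure the same gene in the same pools. The probe sets of lpr-1, lpr-3, lpr-4 and lpr-5, 5 in number, were lowest on lethargus replicate 1 and highest on L3 replicate 1, as were 3.03% of all probe sets. For lpr-7 the lowest array was instead lethargus replicate 2.

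**Figure D4:**
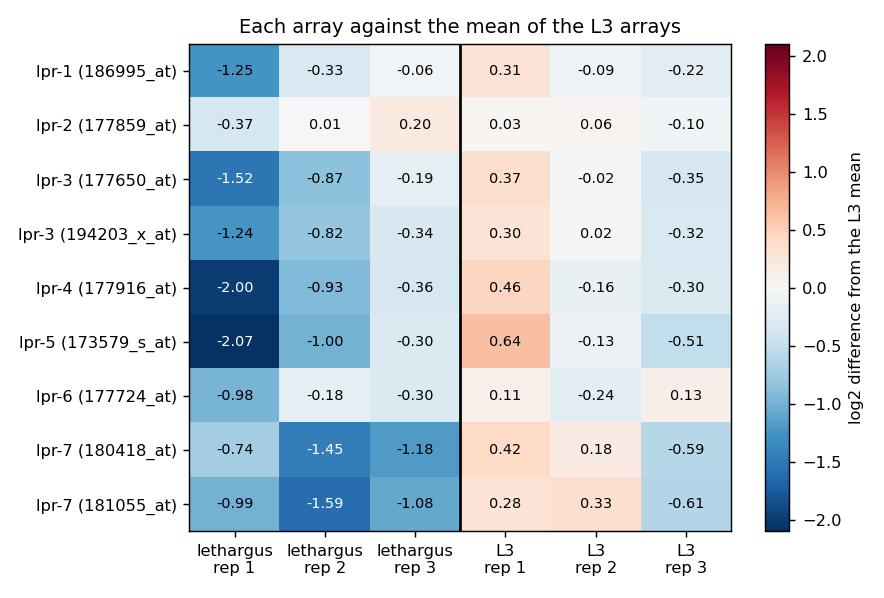
Difference of each array from the mean of the L3 arrays for every lpr probe set, in log2 units, with the lethargus arrays left of the black line and the L3 arrays right of it; blue is below and red above the L3 mean, and the number in each cell is the difference. Lethargus replicate 1 reaches -2.07 for lpr-5, while for lpr-7 the deepest values, -1.45 and -1.59, are on lethargus replicate 2.

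Over the 6 arrays lpr-3, lpr-4 and lpr-5 had nearly one profile, with Pearson r of 0.993 between lpr-3 and lpr-5, 0.992 between lpr-4 and lpr-5 and 0.988 between lpr-3 and lpr-4. lpr-1, on another chromosome, had r of 0.956 to 0.977 with these 3 genes, whereas lpr-7 had 0.643 to 0.703 with them. These coefficients describe 6 arrays that fall in 2 stages and share their RNA pools, and they carry no test. Among 1811 probe sets of symbol-named genes that spread by at least 1 log2 unit, 72 had r above 0.9 with lpr-5 and 67 with lpr-4. The 3 genes most like lpr-5 were bus-18, which encodes an acyltransferase, with 0.997, ced-8, which acts in programmed cell death, with 0.993, and lpr-3. Those most like lpr-4 were bus-18 with 0.996, dbd-2 with 0.993 and lpr-5. The identifiers for lpr-5 and dbd-2 mark probes that can match several transcripts, so neither profile is shown to be that gene alone. The level of bus-18 averaged 3.82 in lethargus and 4.30 in L3, within the range of the background controls. ced-8 read 5.10 and 5.70 on lethargus replicates 1 and 2, also below the highest background control.

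Genes of the precuticle and its partners were set beside the lpr genes, since LPR-3 sits in the same coat. Of 14 measured, limma called 0 in either direction, and the list median was -0.36. A negative change was seen for 11, against 46.4% of all probe sets. At an unadjusted p under 0.05 from limma, 6 were lower, against 5.11% of all probe sets. The lowest were cutl-18, a cuticlin-like gene, with -1.28 (SE 0.32), noah-2, for a zona pellucida domain protein of the skin's apical matrix, with -1.15 (SE 0.41), and cut-6, a cuticlin gene. The adjusted p-values from limma were 0.155 for cutl-18, 0.348 for noah-2 and 0.374 for cut-6. All lethargus values of cut-6, from 5.03 to 5.72, lay below the highest background control, so its change of -0.91 is not exact, and 2 others of the 14 genes averaged below that control. cutl-18 read 5.64, 5.87 and 6.84 on lethargus replicates 1 to 3, the first below that control and the second just above it, so its change is not exact either. noah-2 read 9.09, 9.85 and 10.77 on lethargus replicates 1 to 3, against 11.41, 11.10 and 10.66 on L3 replicates 1 to 3. As for lpr-5 and the lpr-3 probe set with the higher mean, lethargus replicate 1 was the lowest array and L3 replicate 1 the highest, and lethargus replicate 3 lay above L3 replicate 3. With array weights cutl-18 was called lower (-1.43, limma adjusted p 0.0490).

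The 8 regulators and read-outs of the molt had a median of -0.34, and 5 went down in lethargus while 3 went up. At an unadjusted p under 0.05 from limma, 4 were lower, against 5.11% of all probe sets, and 0 were higher. After adjustment limma called 2 lower, against 0.213% of all probe sets, and 0 higher. The called genes were mlt-10 and bed-3. mlt-10, a gene expressed in the skin around each molt, had a change of -2.67 (SE 0.43). bed-3, a zinc finger gene needed for molting, had -2.54 (SE 0.39). Both calls ended when any array other than L3 replicate 3 was left out, while the changes stayed at -2.96 to -2.30 for mlt-10 and -2.77 to -2.28 for bed-3. Those fits called 0 or 1 probe sets lower over the whole array. grh-1, the grainyhead factor gene of epidermal barriers, had the next largest difference. It read 3.92 to 5.47 over the 6 arrays, all below the highest background control, and no change is given for it. grh-1 is still counted in the list median, among the 5 that went down and among the 4 at an unadjusted p under 0.05 from limma. A change of 0.11 was measured for nhr-23, whose nuclear receptor drives molting. mlt-10 read 8.95, 7.63 and 8.52 on lethargus replicates 1 to 3, so its lowest array was lethargus replicate 2, as for lpr-7 and unlike the adjacent lpr genes.

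Fatty acid-binding proteins, encoded by the lbp genes, share the barrel fold of lipocalins but mostly act on lipids inside cells or in body fluid. Of 9 measured, limma called 0, and 5 had a positive and 4 a negative change, with a list median of 0.099. The largest were those of lbp-5, at 0.56 (SE 0.14), lbp-1, at 0.27, and lbp-4, at -0.27, with adjusted p-values from limma of 0.148, 0.711 and 0.704. lbp-5, the only one with an unadjusted p under 0.05, read 10.51, 10.45 and 10.58 in lethargus and 9.84, 9.84 and 10.17 in L3, with separate groups, and was called higher without L3 replicate 3 (0.67, limma adjusted p 0.0405). Of 6 scavenger receptor genes of the CD36 family, which bind lipids and lipoproteins, limma called 0, with 0 at an unadjusted p under 0.05 and a list median of 0.066. The changes were 0.30 for scav-6 and -0.23 for scav-5, with adjusted p-values from limma of 0.705 and 0.755, while scav-2 read below the highest background control on all 6 arrays. No test was made of the lpr genes against these groups.

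**Figure D5:**
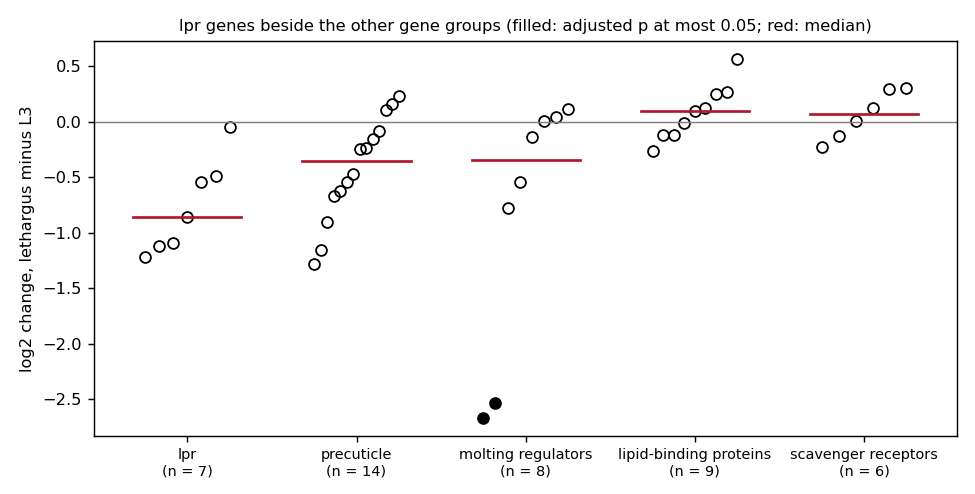
Log2 change, lethargus minus L3, of each gene on its brightest probe set, for the 7 lpr genes, 14 precuticle genes, 8 molting regulators and read-outs, 9 lipid-binding protein genes and 6 scavenger receptor genes; filled points passed limma's adjusted p of 0.05, red bars mark group medians, and genes within the range of the background controls are plotted too. The lpr median lies at -0.86, the precuticle and molting medians at -0.36 and -0.34, and the others near zero.

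Markers of the tissues in a whole larva were read beside the lpr genes. The 6 epidermal markers had a list median of -0.36 with 1 called lower, the collagen gene rol-6 at -1.05 (limma adjusted p 0.0488), a call that held without L3 replicate 3 and ended when any other array was left out, with changes of -1.14 to -0.92 in fits that called 0 or 1 probe sets lower over the whole array. At an unadjusted p under 0.05, 2 of the 6 were lower and 1 higher, and 3 had a negative and 3 a positive change. dpy-7, another collagen gene of the list, read 9.93, 10.68 and 11.26 on lethargus replicates 1 to 3 and 12.19, 11.71 and 11.31 on L3 replicates 1 to 3, with a change of -1.12 (limma adjusted p 0.288). Its order of arrays was that of lpr-4. The factor genes of the epidermis went both ways, with 0.45 for elt-1, 0.41 for elt-3, 0.0029 for nhr-25 and -0.72 for lin-26. The median level of this list was 9.29 to 9.56 over the lethargus arrays and 9.45 to 9.95 over the L3 arrays. The 6 excretory duct and canal markers had a list median of 0.11 with 0 called. This list also takes in the canal, beyond the duct and pore tubes that need lpr-1. Its median levels were 7.98 to 8.39 in lethargus and 7.67 to 8.24 in L3. At an unadjusted p under 0.05, 1 was lower, exc-4, a chloride channel gene, with -0.73 (limma adjusted p 0.102). Its lethargus replicates 1 to 3 read 5.59, 5.89 and 5.74, close to the highest background control of 5.73, so that change is not exact. The 3 seam markers, 5 intestine markers, 4 body muscle markers, 5 neuronal markers and 5 germline markers had medians of 0.030, 0.083, -0.027, -0.094 and 0.14, with 0 called and 1, the seam gene ceh-16, which averaged below the highest background control, lower at an unadjusted p under 0.05. The 7 sperm markers had a median of 0.15 with 0 called and 0 at an unadjusted p under 0.05, levels of 5.05 to 5.70 in lethargus and 3.90 to 5.97 in L3, and 6 of them averaged below the highest background control. The part of tissue composition in the lpr values was not tested.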

How the data were processed

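The deposited table holds log2 expression values that the authors made with RMA, per the submitters' processing notes; the sources used here give neither its version nor a genome build. Per the labels' protocols, RNA was amplified before hybridization, and 1 of 4 samples per stage was set aside for RNA quality. Arrays are one-colour, 3 per stage, and their number limits precision. Of 22625 probe sets, 77 controls were left out. Values were used without further normalization and tested with a two-sided linear model of stage alone (limma 3.58.1, R 4.3.3), with Benjamini-Hochberg adjustment over 22548 probe sets; the design text names R/maanova at a false discovery rate of 5%, which was not run. The fit was tested on simulated data with independent noise and changes larger than any lpr change. That check does not cover changes of the lpr size or an array that stands apart. Labels give separate pools but not separate cultures or days, and the p-values therefore reflect only how much pools vary, which may be technical. Of the array annotation's probe sets, 20766 name 1 gene; all 7 lpr genes matched RefSeq by gene identifier.

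The lpr members and all gene lists were chosen with earlier results of these data known. All members are named; of each non-marker list, called genes and the 3 largest changes are named, on the probe set with the highest mean. Single marker genes, nhr-23, lpr neighbours and statements on single arrays were picked after their values were seen. Genes most alike are the 3 with the highest Pearson r for each of the 2 lpr genes with the largest range. Lists are described by counts and medians only. Some listed genes, noah-2 and dpy-7 among them, were read by probe sets whose identifiers mark probes that can match several transcripts. Alternatives were other normalizations, filters, variance models, array weights, a replicate block, the mean of a gene's probe sets and leaving out each array. Replicate numbers are not shown to pair the arrays.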

Additional observations from a re-analysis of the deposited data

How the results depend on the processing

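The count of lpr probe sets called lower was 0 on 6 arrays, 1 with array weights and 0 to 2 when single arrays were left out, and none was called higher under any of the 14 alternatives. For lpr-7, the changes with single arrays left out ran from -1.53 to -1.03 on the probe set with the higher mean, which had -1.43 with array weights, and from -1.42 to -0.91 on the other. lpr-2 alone changed sign, with -0.18 to 0.11 when single arrays were left out and the positive value without lethargus replicate 1. The other lpr genes kept a negative change and no call under every alternative, with changes of -1.53 to -0.20 and adjusted p-values down to 0.0992 from limma. Over the whole array, 170 probe sets were called higher and 48 lower. Array weights gave 262 and 231, variance trend with robust fitting gave 77 lower, and the ordinary linear model gave 0 and 0. Leaving out single arrays gave 75 to 573 higher and 0 to 563 lower, with the highest counts without L3 replicate 3. Of the listed genes, 0 were called higher and 3 lower, with 0 to 2 and 0 to 6 when single arrays were left out and 0 lower with the ordinary linear model. With a replicate block, 56 probe sets were called higher and 3 lower, with 0 of the 9 lpr probe sets and 0 listed genes called; the deviations of same-numbered arrays correlated at 0.264, -0.244 and -0.293, so the numbers are not shown to pair them. The causes were not tested.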
